A study of Mus musculus with 4 samples.

Results

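The microRNA gene loci described here are the rows of the deposited gene table whose symbol names a microRNA hairpin (Mir followed by a digit, or Mirlet7, host transcripts ending in hg left out) and whose counts over the 4 libraries sum to 20 or more. They number 156, out of 1180 microRNA rows and 55401 rows in all. Another 587 microRNA rows held 1 to 19 counts, and 437 held none. They were selected by symbol and by the summed count, not by the change between conditions, so the levels are a description. The 5 rows named just inside the threshold, at 20 counts, were Mir1898, Mir1968, Mir669a-1, Mir669o and Mir673. The 5 named just outside it, at 19 counts, were Mir1983, Mir297a-3, Mir350, Mir496a and Mir6925.

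The libraries held newly made RNA, labelled with 4-thiouridine (4sU), from embryonic stem cells of the mouse (cell line 129/Ola), grown with serum and leukemia inhibitory factor. The cells carried an auxin-inducible degron (AID) on SNRNP70 (U1-70K), a protein of the particle U1 snRNP, which marks the start of introns for splicing and also keeps long transcripts from ending early. Auxin (IAA) sends the tagged protein to the proteasome, and the cells had received it for 0 h or for 5 h, with 2 libraries at each time. All 4 libraries come from the degron line by their titles, although the genotype label of the 0 h libraries reads WT. Nothing in the labels says that replicates were separate cultures, so p-values measure the spread between these libraries, which may be technical.

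A microRNA starts as a hairpin within a longer transcript. In the canonical route the nuclease DROSHA with its partner DGCR8 cuts the hairpin out of that transcript in the nucleus, XPO5 exports it, DICER1 cuts it to a short duplex and an Argonaute protein carries one strand of it to target mRNAs, which it recognises through its seed, bases 2 to 8. Many hairpins lie in introns of other genes, and a mirtron is an intron that folds into a hairpin after splicing, so that its end is the AG that ends the intron. Mouse embryonic stem cells are known for the miR-290 to miR-295 cluster, whose members share seeds and promote the rapid cell cycle of these cells. No selection of small RNA is named in the labels, so the libraries are not read here as a measure of mature microRNAs, and a count at a hairpin of 55 to 139 bases cannot be told apart from RNA of a gene, intron or other transcript that runs across it.

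The hairpins of loci called higher inside genes are printed first, because their place within a gene and their ends are described further on. Sequences are from RefSeq on GRCm38, to which mm10 corresponds, given 5′ to 3′ with an AG at the end, or a GU at the start, in capitals. Hairpins were found there for 129 of the 156 loci. The following 6 end in AG and lie within the span of a protein-coding gene on its strand, at chr10:79862587-79862652 (plus strand, in Ptbp1), chr19:7422573-7422642 (plus, in 2700081O15Rik), chr5:140427339-140427409 (plus, in Eif3b), chr10:78408475-78408545 (minus, in Rrp1), chr1:36348682-36348758 (minus, in Kansl3) and chr10:80278164-80278232 (plus, in Dazap1).
Mir6910: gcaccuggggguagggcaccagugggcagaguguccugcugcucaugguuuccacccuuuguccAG
Mir6991: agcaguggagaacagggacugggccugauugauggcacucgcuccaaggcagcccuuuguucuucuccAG
Mir7038: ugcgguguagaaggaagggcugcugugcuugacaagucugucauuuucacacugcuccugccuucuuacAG
Mir6907: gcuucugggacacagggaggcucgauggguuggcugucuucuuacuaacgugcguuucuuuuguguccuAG
Mir6898: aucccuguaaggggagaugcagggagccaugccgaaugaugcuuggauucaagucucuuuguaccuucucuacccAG
Mir6911: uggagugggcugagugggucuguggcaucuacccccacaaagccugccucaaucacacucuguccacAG

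The hairpins of Mir677 (chr10:128085286-128085363, plus, in Atp5b), Mir5125 (chr17:23823291-23823369, plus, in Srrm2), Mir1291 (chr15:98519762-98519878, minus, in Kansl2) and Mir692-2 (chr4:125504749-125504857, plus, in Grik3) belong to called loci too, lie within a protein-coding gene on its strand and do not end in AG. Mir7060 (chr7:127489251-127489387, plus, in Fbrs), which was not called, is shown as 1 of 5 loci whose hairpin both starts with GU and ends with AG, the letters found at the start and the end of most introns.
Mir677: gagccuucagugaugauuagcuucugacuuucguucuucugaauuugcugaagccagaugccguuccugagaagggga
Mir5125: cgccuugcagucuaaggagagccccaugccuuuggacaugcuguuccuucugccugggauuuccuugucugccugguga
Mir1291: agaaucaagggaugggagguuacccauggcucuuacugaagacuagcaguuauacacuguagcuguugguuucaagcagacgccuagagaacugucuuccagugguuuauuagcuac
Mir692-2: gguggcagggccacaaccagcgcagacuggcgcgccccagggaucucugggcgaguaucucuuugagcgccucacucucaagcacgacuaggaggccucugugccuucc
Mir7060: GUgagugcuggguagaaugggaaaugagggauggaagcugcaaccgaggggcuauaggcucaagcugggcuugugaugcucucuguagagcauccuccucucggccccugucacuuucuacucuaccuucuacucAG

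Some mature microRNAs of the clusters and of the let-7 family are shown with the seed in capitals, to show which of them share one. Other cluster loci, such as Mir106a and Mir20b, also share seeds that are not shown. The last one printed, miR-679-5p, shares its seed with no other locus among the mature sequences found. The 3′ arms of Mir291a, Mir294 and Mir295 share a seed, the 5′ arms of Mir290a, Mir292 and Mir293 share another, and Mir98 shares the let-7 seed with Mirlet7f-2.
miR-291a-3p: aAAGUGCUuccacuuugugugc
miR-294-3p: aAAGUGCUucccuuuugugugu
miR-295-3p: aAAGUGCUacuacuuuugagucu
miR-290a-5p: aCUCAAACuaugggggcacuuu
miR-292a-5p: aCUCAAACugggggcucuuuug
miR-293-5p: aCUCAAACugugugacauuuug
let-7f-5p: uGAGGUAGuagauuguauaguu
miR-98-5p: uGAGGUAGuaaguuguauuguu
miR-679-5p: gGACUGUGaggugacucuuggu

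The libraries held 17752887 and 7174772 counts at 0 h and 15645894 and 10349277 at 5 h, and replicates correlated across genes at r = 0.969 and 0.965. The 156 loci held 2534 and 1041 of these counts at 0 h and 3241 and 2126 at 5 h, and 71.1% of all counts on microRNA rows. A floor of 3 counts was worth 0.154 to 0.382 CPM (counts scaled to library size, with TMM factors) depending on the library, so many loci lie close to it, and such floors and intervals cover counting error only. The degron acts on the protein, so the Snrnp70 transcript does not check the labels; it stood at 249 and 243 CPM at 0 h and at 451 and 475 CPM at 5 h. The 9 embryonic stem cell markers summed to 3050 to 3495 CPM in the 4 libraries, with 4 called higher and 2 lower. The 7 feeder fibroblast markers summed to 13.9 to 16.6 CPM, with Col3a1, Postn and Lum at 0 in every library. The 5 primitive endoderm markers summed to 5.73 to 13.5 CPM, the 4 neural markers to 61.5 to 71.0 CPM and the 4 mesoderm markers to 3.82 to 5.62 CPM; 1 neural marker, Sox1, was called higher and 1, Tubb3, lower, and their part in the results was not tested.

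The 156 loci differed in direction, and their summed level was higher after 5 h of auxin. Summed over the loci, the level was 130 and 132 CPM in the 0 h libraries and 224 and 230 CPM in the 5 h libraries. The ratio between the means was 1.73, and the groups did not overlap. Mir3535, a row whose content is uncertain, gave 62 and 15 counts to the 0 h sums and 204 and 271 to the 5 h sums. All 1180 microRNA rows held 3766 and 1628 counts at 0 h and 4340 and 2851 at 5 h. These are raw counts, not scaled to library size, so they cannot be set beside that ratio. A threshold on the summed count can admit loci through high counts in 1 group, so the ratio of 1.73 holds for these 156 loci only. Both 5 h libraries lay above both 0 h libraries at 81 loci (51.9%), against 34.8% of the 19006 rows of the table with a summed count of 20 or more and 26.2% of the 9910 such rows with no more counts than the highest locus. Both lay below at 22 loci (14.1%), against 35.8% and 33.0% of those rows. In a fit without a filter on low counts, which keeps every locus, the log2 fold change was above 0 at 112 of the 156 loci and its median was 0.65, against -0.01 over the same 19006 rows. On a scale set by mitochondrial transcripts the median of all tested genes was -0.86 and that of the 84 tested loci was -0.07.

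edgeR's quasi-likelihood test was run on the 84 loci that passed the filter on low counts, within a fit of 17344 genes. It called 13 loci higher and 1 lower at 5 h, at a Benjamini-Hochberg adjusted p under 0.05. Of all tested genes, 22.0% were called higher and 21.2% lower. The share of tested loci called higher (15.5%) was therefore below that background and the share called lower (1.19%) well below it. Among the 8249 tested genes with no more counts than the highest microRNA locus, a range chosen after the values were seen, 9.66% were called higher and 13.5% lower. The other 72 loci, with at most 43 counts each, were too low to be tested and are described only by their values.

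**Figure D1:**
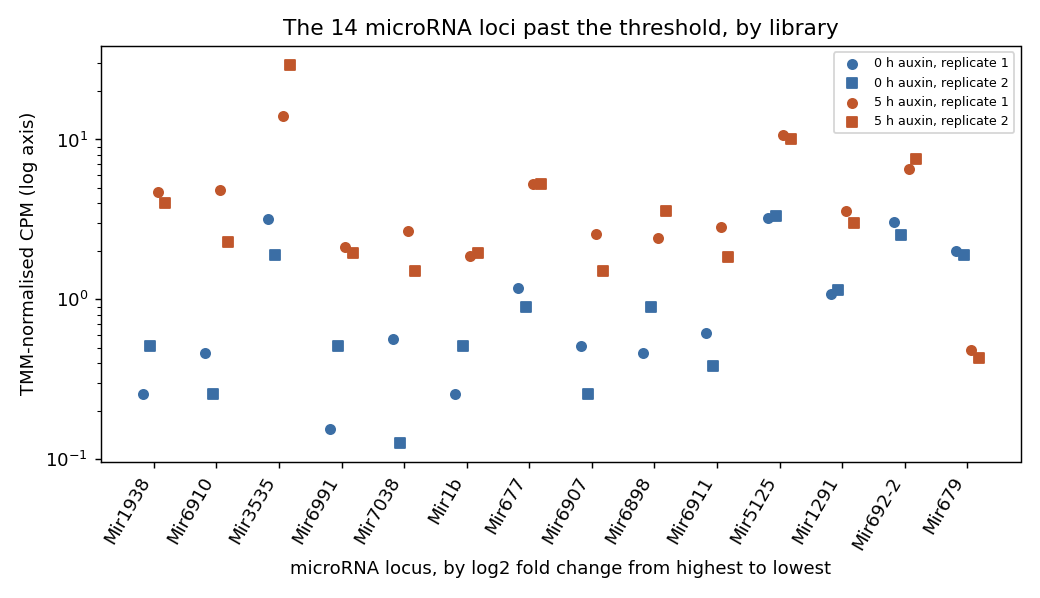
The 14 microRNA loci past the threshold (horizontal axis, from the highest to the lowest log2 fold change) with the TMM-normalised CPM of each library on a log axis; circles are replicate 1, squares replicate 2, blue 0 h and orange 5 h of auxin. At 13 loci both 5 h points lie above both 0 h points, and at Mir679 both lie below.

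Mir1938 had the highest log2 fold change among the called loci. It stood at 0.257 and 0.509 CPM at 0 h and at 4.70 and 4.00 CPM at 5 h. These were 5 and 4 counts and then 68 and 37, without overlap, a log2 fold change of 3.61 (SE 0.59, adjusted p = 0.000738). The locus lies at chr12:40222712-40222811, on the minus strand, 378 bases from the start of Ifrd1, which encodes an interferon-related developmental regulator. Ifrd1 itself had a log2 fold change of 0.57 (SE 0.12, adjusted p = 0.00268).

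Mir6910 lies within Ptbp1, the gene of a splicing repressor that binds pyrimidine-rich RNA. It stood at 0.463 and 0.254 CPM at 0 h and at 4.83 and 2.27 CPM at 5 h, so the 5 h libraries were both far above the 0 h ones and also differed from each other. Its log2 fold change was 3.19 (SE 0.67, adjusted p = 0.00306), against 0.74 (SE 0.08) for Ptbp1. Mir677 lies in Atp5b, which encodes the beta subunit of the mitochondrial ATP synthase. It stood at 1.18 and 0.891 CPM at 0 h and at 5.25 and 5.30 CPM at 5 h, with close replicates, a log2 fold change of 2.29 (SE 0.44, adjusted p = 0.00183). Atp5b rose by much less, with a log2 fold change of 0.34 (SE 0.08).

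Mir5125 lies in Srrm2, the gene of a large serine and arginine rich protein of nuclear speckles, 32764 bases into a span of 34215. It stood at 3.24 and 3.31 CPM at 0 h and at 10.7 and 10.1 CPM at 5 h. These were among the closest replicates of the called loci, and the log2 fold change was 1.66 (SE 0.29, adjusted p = 0.00100) against 1.00 (SE 0.08) for Srrm2. Leaving out any 1 library kept the calls of Mir1938, Mir6910, Mir677, Mir5125, Mir3535 and Mir692-2. On the scale of mitochondrial transcripts those of Mir5125 (0.83, adjusted p = 0.062) and Mir692-2 (0.46, adjusted p = 0.331) were lost.

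Of the remaining loci called higher inside protein-coding genes, Mir6991, in 2700081O15Rik, stood at 0.154 and 0.509 CPM at 0 h and at 2.14 and 1.95 CPM at 5 h. Its log2 fold change was 2.79 (SE 0.88, adjusted p = 0.0255). Mir7038, in the translation initiation factor gene Eif3b, stood at 0.566 and 0.127 CPM at 0 h and at 2.69 and 1.51 CPM at 5 h, with a single count in 1 of the 0 h libraries. Mir6907, in the ribosome biogenesis gene Rrp1, stood at 0.515 and 0.254 CPM and then at 2.55 and 1.51 CPM. Neither overlapped between the groups, and their log2 fold changes were 2.40 (SE 0.83, adjusted p = 0.0376) and 2.29 (SE 0.78, adjusted p = 0.0362).

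Mir6898, in Kansl3, stood at 0.463 and 0.891 CPM at 0 h and at 2.42 and 3.57 CPM at 5 h. Kansl3 encodes a subunit of the NSL histone acetyltransferase complex, and the log2 fold change of the locus was 2.21 (SE 0.66, adjusted p = 0.0196). Mir6911, in the RNA-binding protein gene Dazap1, stood at 0.618 and 0.382 CPM at 0 h and at 2.83 and 1.84 CPM at 5 h (log2 fold change 2.15, SE 0.71, adjusted p = 0.0307). Mir1b lies within the span of Mib1, the gene of a ubiquitin ligase of Notch signalling, and of the host transcript Mir133a-1hg. Its strand was not compared with that of Mib1. Mir1b stood at 0.257 and 0.509 CPM at 0 h and at 1.86 and 1.95 CPM at 5 h (log2 fold change 2.39, SE 0.83, adjusted p = 0.0382). All of these loci had 5 h libraries above both 0 h libraries, but their calls rested on few counts. Without replicate 1 of the 0 h group the calls of Mir1291, Mir6898, Mir6991, Mir1b and Mir679 were lost, and without replicate 2 those of Mir1291, Mir6911, Mir7038, Mir6907, Mir1b and Mir679. Without replicate 1 of the 5 h group those of Mir1291, Mir6911, Mir7038, Mir6907, Mir6991, Mir1b and Mir679 were lost, and without replicate 2 those of Mir6898, Mir1b and Mir679.

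A pair of the called loci overlap another short or duplicated gene, so their reads may be shared with it. Mir1291 (chr15:98519762-98519878, minus strand, in Kansl2) overlaps Snora34, a small nucleolar RNA that guides pseudouridylation. It stood at 1.08 and 1.15 CPM at 0 h and at 3.59 and 3.03 CPM at 5 h, a log2 fold change of 1.57 (SE 0.50, adjusted p = 0.0275). Snora34 stood at 4.12 and 4.84 CPM and then at 16.6 and 13.4 CPM, a log2 fold change of 1.77 (SE 0.26, adjusted p = 0.000401), so the overlapping row was higher at 5 h too. Mir692-2 (chr4:125504749-125504857, plus strand) overlaps Ftl2-ps, a pseudogene of ferritin light chain, within the long receptor gene Grik3. Mir692-2 stood at 3.04 and 2.54 CPM at 0 h and at 6.49 and 7.57 CPM at 5 h (log2 fold change 1.31, SE 0.34, adjusted p = 0.00947), Ftl2-ps had a log2 fold change of 1.06 (SE 0.12) and Grik3 one of -0.55 (SE 0.16, adjusted p = 0.0178). Pseudogene reads can also come from other ferritin copies, so this locus is uncertain.

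Mir3535 had the second highest summed count of all loci. It stood at 3.19 and 1.91 CPM at 0 h and at 14.1 and 29.3 CPM at 5 h, so both 5 h libraries were above both 0 h ones but differed from each other by more than the 0 h level. Its log2 fold change was 2.99 (SE 0.39, adjusted p = 0.000196). RefSeq lists Mir3535 as a synonym of Gm24148, which has a row of its own with 4 counts in all, so what the Mir3535 row measures is uncertain and it was not placed. Its 0 h counts of 62 and 15 were the same as those of both L3mbtl1, a chromatin reader, and Catsper2, a sperm cation channel gene. At 5 h the rows parted, with 204 and 271 counts for Mir3535, 2590 and 1472 for L3mbtl1 and 62 and 46 for Catsper2.

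Equal counts with other rows were frequent at these low levels. Of the 156 loci, 155 had the counts of some other row in at least 2 libraries, with a median of 78.5 such rows per locus. At most loci equality in part of the libraries therefore singles out no gene. Some of the loci with the most counts had few such rows, with 2 for Mir3535, 1 for Mir5125 and 0 for Mir293. Whether Mir3535 shares reads with L3mbtl1 or Catsper2 was not tested. Only 4 loci equalled another row in all 4 libraries: Mir20b with Gm23546, Mir301b with Gm5884, Mir669k with Gm47681 and Mirlet7f-2 with Gm22118. None of these 4 passed the filter on low counts, and whether they share reads with the equal row was not tested.

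The loci were split by where RefSeq places them. Of the 154 that could be placed, 92 lie within the span of a protein-coding gene on the same strand, 12 within a non-coding gene on the same strand, 27 within a gene whose strand or own strand was not known, 3 within a gene on the opposite strand only, and 20 outside every gene span. Exon positions were not used here, so an intronic hairpin could not be separated from an exonic one. The place differs from that of weaker rows: 59.7% of the placed loci lie within a protein-coding gene on its strand, against 50.2% of the rows with 1 to 19 counts and 23.6% of those with none. The protein-coding genes that hold such rows on their strand also differ in level. The median level of the gene was 113 CPM for the loci, 34.3 CPM for the rows with 1 to 19 counts and 0.375 CPM for those with none. It was taken over rows, so a gene that holds more than 1 row enters more than once. These shares follow from a threshold on counts and carry no test.

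Levels by place are given as a description, and the difference between places was not tested. The loci inside protein-coding genes and on their strand summed to 55.1 and 56.6 CPM at 0 h and to 134 and 122 CPM at 5 h, without overlap, a ratio of 2.29. In the fit without a filter, the median log2 fold change of the 92 loci on the strand of a protein-coding gene was 1.07, with 79 above 0. It was 0.31 for the 27 loci whose strand was not compared, -0.31 for the 12 in non-coding genes and -0.09 for the 20 outside every span. It was 0.97 for the 3 loci opposite to a gene and 1.73 for the 2 loci not placed. Both 5 h libraries were above both 0 h libraries at 64 of the 92 loci in protein-coding genes (69.6%), against 34.8% of all rows with 20 or more counts and 26.2% of those with no more counts than the highest locus. The same held at 10 of the 27 loci whose strand was not compared, 2 of the 3 opposite to a gene, 2 of the 12 in non-coding genes and 2 of the 20 outside every span. Of the 52 tested loci in protein-coding genes, edgeR called 11 higher (21.2%) and 0 lower. Of all tested genes 22.0% were called higher and 21.2% lower. Of tested genes with no more counts than the highest locus, 9.66% were called higher and 13.5% lower. Among the 52 loci, 0 were lower at an unadjusted p under 0.05 and 0 were called lower by DESeq2. The median over these 52 stayed above 0 on the scale of library totals (0.93) and on that of mitochondrial transcripts (0.37).

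**Figure D2:**
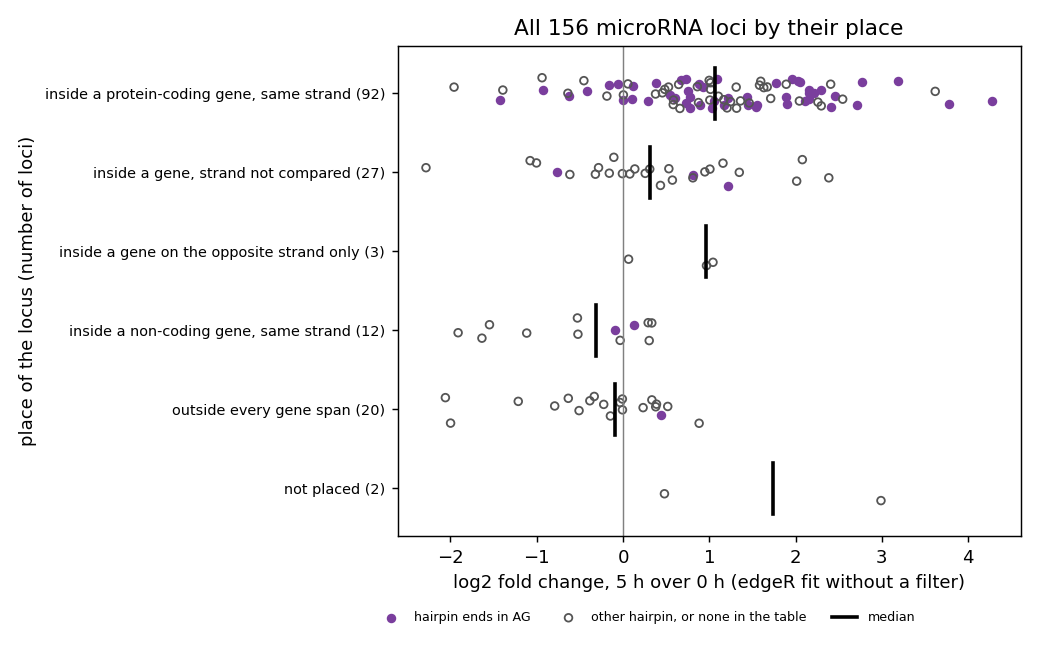
The log2 fold change of each of the 156 loci (horizontal axis, 5 h over 0 h, edgeR fit without a filter) by its place relative to RefSeq gene spans (vertical axis, with the number of loci); filled points are hairpins that end in AG, open points are other hairpins or loci with none in the table, and bars are medians. The median is 1.07 for the 92 loci in protein-coding genes and -0.09 for the 20 outside every span.

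Hairpins that end in AG were frequent among the loci. The letters AG, read on the strand of the hairpin as its last 2 bases, end 56 of the 129 hairpins found (43.4%), against 23.7% of the 1005 hairpins of the RefSeq table and 21.3% of those of microRNA rows with under 20 counts. Among the loci on the strand of a protein-coding gene 50 of 85 hairpins end in AG (58.8%), and elsewhere 6 of 44 (13.6%). No share was taken for weaker rows in the same place, so the part of place in the difference from weaker rows was not tested. A GU start, which needs the first 2 bases, was found in 7.75% of the hairpins of the loci and in 7.66% of all hairpins. A match of 2 letters is a description of the hairpin and not of a splice site.

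Inside protein-coding genes, loci with and without the AG end both lay mostly above 0. The median log2 fold change in the fit without a filter was 1.13 for the 50 loci with the AG end and 1.01 for the 35 without it, with quartiles of 0.62 to 2.09 and 0.42 to 1.52. The 50 summed to 24.3 and 27.0 CPM at 0 h and to 65.8 and 53.1 CPM at 5 h. The 35 summed to 26.1 and 24.8 CPM at 0 h and to 53.9 and 55.4 CPM at 5 h. In both sets the groups did not overlap, and the difference between the sets was not tested. Calls were made at 6 of 27 tested loci with the AG end (22.2%) and at 4 of 20 without it (20%). Of all tested genes 22.0% were called higher, and of those with no more counts than the highest locus 9.66%.

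The 5 loci whose hairpin has both GU at the start and AG at the end all lay above their 0 h values in both 5 h libraries, and none was called. The same order held at 69.6% of the 92 loci on the strand of a protein-coding gene. It held at 34.8% of all rows with 20 or more counts and 26.2% of those with no more counts than the highest locus. Mir7060, in Fbrs, stood at 0.721 and 0.382 CPM at 0 h and at 2.28 and 2.05 CPM at 5 h, just short of the threshold (log2 fold change 1.88, SE 0.71, adjusted p = 0.0529). Mir6984, in the mitochondrial ribosomal protein gene Mrpl21, stood at 0.154 and 0.509 CPM and then at 1.31 and 1.19 CPM (adjusted p = 0.133). Mir7018, in Hspg2, which encodes the basement membrane proteoglycan perlecan, stood at 0.412 and 0.382 CPM and then at 1.10 and 1.08 CPM (adjusted p = 0.249). These values lie near the floor of 3 counts at 0 h. Mir877, in Abcf1, and Mir7049, in Pak4, were too low to be tested.

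Loci inside protein-coding genes mostly had higher log2 fold changes than the genes around them. Of 52 tested loci in 50 such genes, 48 had a higher log2 fold change than the enclosing gene, and the median difference was 1.01. Over all 92 such loci in the fit without a filter, 76 had the higher value and the median difference was 0.91. The 50 enclosing genes had a median log2 fold change of 0.44, with 31 called higher (62.0%, against 22.0% of all tested genes) and 7 lower (14%, against 21.2%). These backgrounds are not matched for depth. Calls were rarer among tested genes with no more counts than the highest locus, at 9.66% higher and 13.5% lower. No share was taken for genes as deep as the enclosing ones, which were also picked through a locus that passed the filter. Counts of a locus can be part of the counts of the gene, so the 2 values are not independent, and filtering on low counts favours loci that are high in 1 group.

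**Figure D3:**
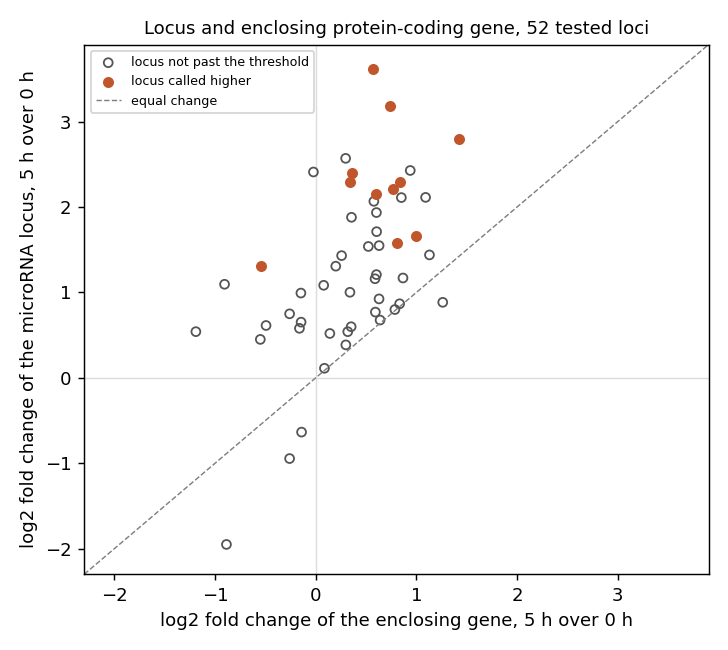
The log2 fold change of 52 tested microRNA loci (vertical axis) against that of the protein-coding gene around them on the same strand (horizontal axis), 5 h over 0 h; filled points are loci called higher and the dashed line marks equal change. Most points lie above the dashed line, 48 of 52.

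The size of the gap varied between loci. Mir704 had a log2 fold change of 2.41 (SE 1.02, adjusted p = 0.0801) where Pdia4, the gene of an endoplasmic reticulum disulfide isomerase around it, had -0.02. Mir6902 had 1.09 where Ppp1r7, the gene of a regulator of protein phosphatase 1, was called lower at -0.91. On the other side, Mir6391 had -1.95 where the transporter gene Abcc4 was called lower at -0.89, and Mir3091 had 0.88 where the ribosomal protein gene Rps21 was called higher at 1.26. None of these 4 loci passed the threshold. Across the 52 loci the change of the locus and that of the gene correlated at Spearman rho = 0.52 (Pearson r = 0.54), as a description over loci that share libraries and, in part, reads.

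Position within the gene went along with the change. The 14 tested loci under 5 kb from the gene's start had a median log2 fold change of 1.42, the 21 loci at 5 to 20 kb one of 1.31 and the 17 farther in one of 0.80. The medians of their genes were 0.60, 0.36 and 0.34. Over the 52 loci, the log2 fold change fell with distance (rho = -0.36, r = -0.37 on the distance in bases) and with the length of the gene (rho = -0.45, r = -0.47). The nearest set holds Mir1938 and Mir677, and the differences between the sets were not tested.

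The loci also include 4 clusters, defined as at least 3 loci with gaps of at most 100 kb, which together hold 42 of the 156 loci. Of the 21 that were tested, 0 were called higher and 1 was called lower by edgeR, against 22.0% and 21.2% of all tested genes. Of tested genes with no more counts than the highest locus, 9.66% were called higher and 13.5% lower. DESeq2 called 0 of the 21 loci higher, and 0 were higher at an unadjusted p under 0.05.

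**Figure D4:**
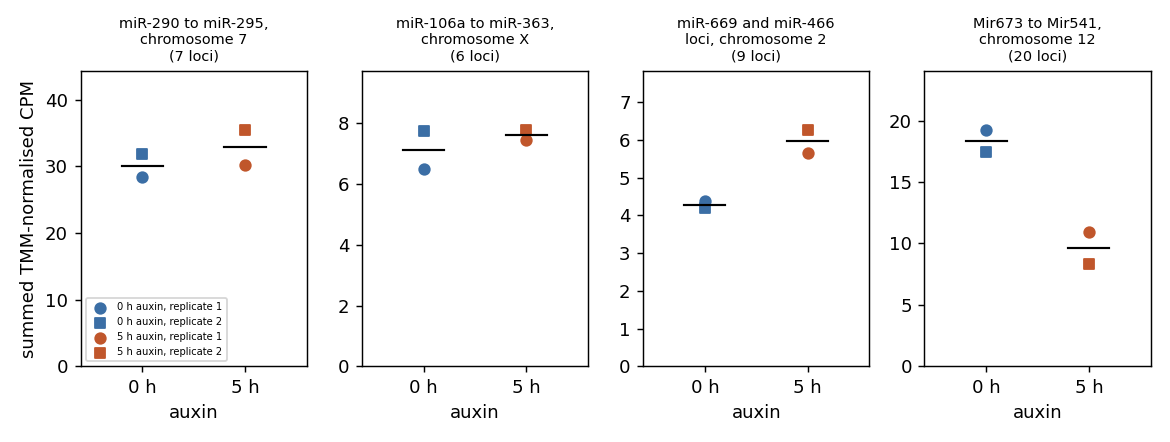
The summed TMM-normalised CPM (vertical axes, each from 0) of the loci of 4 clusters in each library at 0 h and 5 h of auxin; circles are replicate 1, squares replicate 2 and bars the means of the 2 libraries. The chromosome 12 cluster is lower at 5 h without overlap, the chromosome 2 cluster is higher without overlap, and the libraries of the other 2 clusters overlap.

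The miR-290 to miR-295 cluster, the microRNAs typical of embryonic stem cells, had no locus past the threshold on the TMM scale. Its 7 loci lie within 2.22 kb at chr7:3218626-3220841, 6 of them within the span of the non-coding gene D7Ertd143e. Their summed level was 28.4 and 31.8 CPM at 0 h and 30.2 and 35.5 CPM at 5 h, which overlap, with a ratio of means of 1.09. Log2 fold changes ran from -0.11 to 0.43, and edgeR called 0 of the 7, with 0 at an unadjusted p under 0.05 and 0 called by DESeq2. This cluster held the highest locus of all, Mir293.

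Within the cluster the hairpins differed in level per length, from 9.68 CPM per kilobase for Mir291a to 166 CPM per kilobase for Mir293 at 0 h. Mir293 stood at 11.1 and 15.4 CPM at 0 h and at 11.6 and 12.8 CPM at 5 h (log2 fold change -0.11, SE 0.24, adjusted p = 0.753), and on the scale of mitochondrial transcripts it was called lower (-0.96, adjusted p = 0.0115). Per kilobase of hairpin it stood at 152 CPM at 5 h. Mir291b followed with 8.54 and 9.16 CPM at 0 h and 10.2 and 11.6 CPM at 5 h (112 and 137 CPM per kilobase), and the order of the 2 did not change. Mir295 stood at 2.21 and 2.16 CPM and then at 2.69 and 2.81 CPM, and Mir292 at 2.37 and 2.04 CPM and then at 1.93 and 3.57 CPM. Mir290a, Mir294 and Mir291a lay lower, between 0.691 and 2.70 CPM in every library. Adjusted p-values for these last 5 ran from 0.581 to 0.972. The loci that share a seed, Mir291a, Mir294 and Mir295, had log2 fold changes of -0.05, 0.12 and 0.33, each smaller than its SE.

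The miR-106a to miR-363 cluster on chromosome X, a paralog of the miR-17 to miR-92 oncogenic cluster, had no locus past the threshold either. Its 6 loci at chrX:52741693-52742567 summed to 6.49 and 7.76 CPM at 0 h and to 7.46 and 7.78 CPM at 5 h. Mir18b held most of this, at 4.07 and 4.45 CPM at 0 h and 4.07 and 4.32 CPM at 5 h (log2 fold change -0.02, SE 0.35, adjusted p = 0.975). Mir363 stood at 0.772 and 0.891 CPM and then at 0.898 and 1.19 CPM (adjusted p = 0.779). The other 4, Mir92-2, Mir19b-2, Mir20b and Mir106a, were not tested. The host transcript Kis2, next to the cluster, stood at 17.2 and 15.7 CPM and then at 21.3 and 23.1 CPM (log2 fold change 0.42, SE 0.18, adjusted p = 0.0791).

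The paralogous miR-17 to miR-92 cluster on chromosome 14 had a host transcript but few counts at its hairpins. Its 6 rows held 25 counts in all 4 libraries together, none with over 5, so none is among the 156. Its host transcript Mir17hg stood at 277 and 329 CPM at 0 h and at 567 and 614 CPM at 5 h, without overlap, and rose with a log2 fold change of 0.96 (SE 0.10, adjusted p = 6.35e-05). How reads over a hairpin were divided between the rows is not given in the sources used here.

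The chromosome 12 cluster had a lower summed level at 5 h. Its 20 loci, from Mir673 to Mir541 at chr12:109571990-109742498, belong to the imprinted Dlk1 to Dio3 region, in which the long non-coding RNAs Meg3, Rian and Mirg and a large set of microRNAs are made from the maternal chromosome. Their summed level was 19.2 and 17.4 CPM at 0 h and 10.9 and 8.32 CPM at 5 h, without overlap, a ratio of means of 0.524. The mean was lower at 5 h at 20 of 20 loci, and both 5 h libraries lay below both 0 h libraries at 14 of them. Both lay below at 35.8% of the rows of the table with 20 or more counts and 33.0% of those with no more counts than the highest locus. The loci are neighbours that can share a transcript, so they are not 20 separate observations. In the fit without a filter the median log2 fold change was -0.90, with 0 of 20 above 0, against 49.7% of the rows with 20 or more counts. The median of the 9 tested loci was -1.01, and below 0 on both other scales as well.

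**Figure D5:**
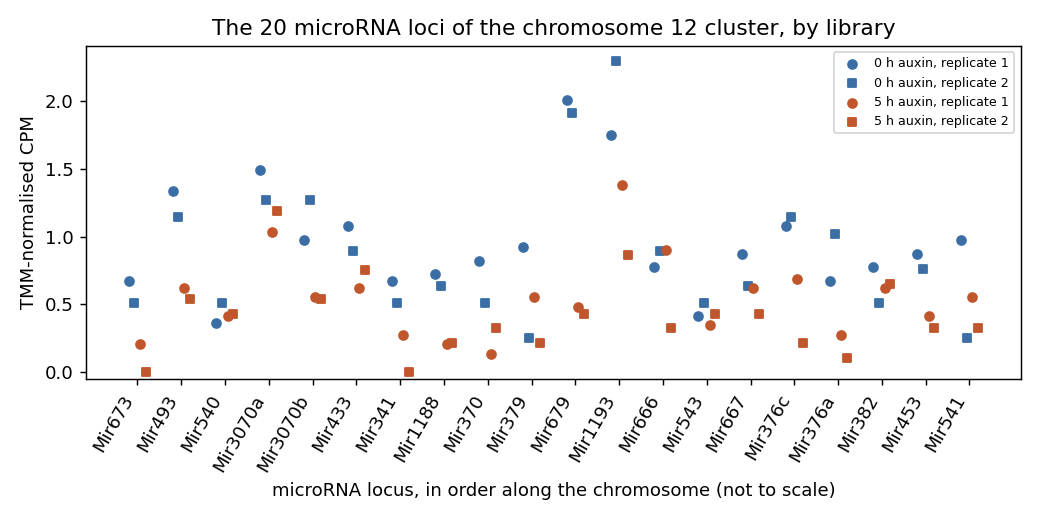
The TMM-normalised CPM (vertical axis) of the 20 loci of the chromosome 12 cluster in order along the chromosome (horizontal axis, not to scale), with circles for replicate 1, squares for replicate 2, blue for 0 h and orange for 5 h of auxin. Both 5 h libraries lie below both 0 h libraries at 14 of 20 loci.

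Mir679 was the only locus called lower. It stood at 2.01 and 1.91 CPM at 0 h and at 0.483 and 0.432 CPM at 5 h, with 39 and 15 counts against 7 and 4, and the replicates lay close together at each time. Its log2 fold change was -2.07 (SE 0.74, adjusted p = 0.0432), and the call was lost without any 1 of the 4 libraries. Its neighbour Mir1193, 20 bases farther along, stood at 1.75 and 2.29 CPM and then at 1.38 and 0.865 CPM (log2 fold change -0.80, adjusted p = 0.341). Mir376c had a log2 fold change of -1.21, Mir453 of -1.12, Mir493 of -1.09 and Mir3070b of -1.01, with adjusted p-values from 0.313 to 0.401. edgeR called 1 of the 9 tested loci of the cluster and DESeq2 called 0, with 1 at an unadjusted p under 0.05 in edgeR.

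The long non-coding RNAs of the region were deep enough to be measured well. Mirg, whose span holds Mir453 and Mir541 among others, stood at 111 and 101 CPM at 0 h and at 56.6 and 46.7 CPM at 5 h and fell, with a log2 fold change of -1.03 (SE 0.13, adjusted p = 0.000128). Meg3 stood at 233 and 228 CPM and then at 170 and 172 CPM and fell by less, with a log2 fold change of -0.43 (SE 0.09, adjusted p = 0.00292). Rian, whose span holds Mir341, Mir1188 and Mir370 among others, stood at 434 and 444 CPM and then at 352 and 422 CPM (log2 fold change -0.18, SE 0.10, adjusted p = 0.168). Along the chromosome the order is Meg3, Rian and Mirg.

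The 9 loci of the chromosome 2 cluster, from Mir669f to Mir669i at chr2:10467229-10517730, lie within the Polycomb gene Sfmbt2, whose intron holds a rodent array of miR-466, miR-467 and miR-669 hairpins. They summed to 4.37 and 4.20 CPM at 0 h and to 5.66 and 6.27 CPM at 5 h, without overlap and with a ratio of means of 1.39. The tested members Mir669i, Mir669a-3 and Mir669g had log2 fold changes from 0.12 to 0.58, and edgeR called 0, with 0 at an unadjusted p under 0.05 and 0 by DESeq2. Sfmbt2 had a log2 fold change of 0.09. These hairpins are near copies of each other, so the division of reads among them is uncertain.

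Of other microRNA families only a few loci had enough counts. Mir7-1, in the RNA-binding protein gene Hnrnpk, stood at 1.49 and 1.40 CPM at 0 h and at 3.31 and 2.16 CPM at 5 h (log2 fold change 0.92, SE 0.52, adjusted p = 0.178), and Hnrnpk had 0.63 (SE 0.09). Mir98, of the let-7 family, lies far into the ubiquitin ligase gene Huwe1 and stood at 0.154 and 0.382 CPM and then at 1.04 and 1.95 CPM (log2 fold change 2.57, SE 1.03, adjusted p = 0.0662). Its neighbour Mirlet7f-2 stood at 0.309 and 0.254 CPM and then at 0.621 and 0.540 CPM and was not tested. The 5 h libraries were the higher ones at all 3 of these loci, and none of the 3 was called. The same order held at 34.8% of all rows with 20 or more counts and 26.2% of those with no more counts than the highest locus. It held at 69.6% of the 92 loci on the strand of a protein-coding gene. Huwe1 itself had a log2 fold change of 0.30 (SE 0.08).

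Mir34a, a target of p53, stood at 0.412 and 1.15 CPM at 0 h and at 1.45 and 0.432 CPM at 5 h, so the groups overlapped. Mir142, known from blood cells, stood at 1.13 and 0.509 CPM and then at 0.967 and 0.540 CPM and overlapped too. Mir15b, in Smc4, stood at 0.360 and 0.382 CPM and then at 0.760 and 0.540 CPM and was not tested. The rows of the miR-302 and miR-367 cluster, the miR-106b to miR-25 cluster, the miR-183 family cluster and the miR-200 family held 12, 25, 41 and 27 counts in all and gave no locus. Those of miR-9 and miR-155, known from neurons and lymphocytes, held 0 counts.

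Among the loci with the highest counts, Mir5136 and Mir1192 did not pass the threshold. Mir5136, which lies opposite to Lbhd1, stood at 2.11 and 1.78 CPM at 0 h and at 3.80 and 3.89 CPM at 5 h (log2 fold change 0.96, SE 0.42, adjusted p = 0.0925). Mir1192, in the transcription factor gene Klf9, stood at 1.80 and 1.78 CPM and then at 3.38 and 3.78 CPM (log2 fold change 0.99, SE 0.44, adjusted p = 0.0951). In both, the 5 h libraries lay above the 0 h ones with close replicates.

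The genes that make and use microRNAs changed in both directions. Of the 39 genes of the list all were tested; 19 were called higher and 10 lower, on the TMM scale, while 9 were called higher and 14 lower on library totals and 2 higher and 26 lower on mitochondrial transcripts. Of all tested genes, 22.0% and 21.2% were called on the TMM scale, 13.2% and 30.3% on library totals and 2.28% and 51.2% on mitochondrial transcripts, so the counts of the list shift with those of all genes. Their median log2 fold change of 0.26 on the TMM scale, against -0.02 for all tested genes, became -0.00 and -0.57 on these scales, against -0.28 and -0.86. The genes of the nuclear cutting complex did not pass the threshold on the TMM scale and were called lower on both others. Drosha stood at 218 and 212 CPM at 0 h and at 186 and 210 CPM at 5 h (log2 fold change -0.12, SE 0.10, adjusted p = 0.350), and Dgcr8 at 155 and 150 CPM and then at 148 and 141.4 CPM (log2 fold change -0.08, SE 0.09, adjusted p = 0.550). On library totals their log2 fold changes were -0.39 (adjusted p = 0.00686) and -0.34 (adjusted p = 0.0154), and on mitochondrial transcripts -0.97 and -0.92.

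Dicer1 stood at 158 and 171 CPM at 0 h and at 115 and 120 CPM at 5 h and fell, with a log2 fold change of -0.49 (SE 0.10, adjusted p = 0.00237). Xpo5, the exporter of hairpins, fell with a log2 fold change of -0.88 (SE 0.09), as did the Argonaute gene Ago2 (-0.59, SE 0.09) and the silencing cofactor gene Tnrc6c (-1.15, SE 0.14). Tnrc6b and the Argonaute gene Ago3 were called lower as well. Tnrc6a (0.33, SE 0.08) and the export partner Ran (0.38, SE 0.09) rose on the TMM scale, however. Ago1, Ago4, Tarbp2 and Prkra did not pass the threshold.

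Srsf3, a splicing factor that also binds next to hairpins, stood at 534 and 569 CPM at 0 h and at 1470 and 1568 CPM at 5 h and had the lowest adjusted p of the list (log2 fold change 1.46, SE 0.09, adjusted p = 6.85e-06). Safb, a scaffold attachment factor that helps weak hairpins be cut, stood at 183 and 177 CPM and then at 470 and 466 CPM (log2 fold change 1.38, SE 0.09). The groups did not overlap at either gene, and both were also called on the scale of mitochondrial transcripts.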

How the data were processed

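The deposited table held whole-number gene values for 4 libraries of 4sU-labelled RNA, 2 at each time of auxin. The tools named in the submitters' processing notes are StringTie 2.2.1, DESeq2 1.42.0 and HISAT2 2.2.1, beside the build mm10; which of them made the deposited values is not given in the sources used here. The deposited values were treated as estimated counts, because 3 and 4 were each more frequent than 2; whether 1 fragment is worth several counts is not known. The annotation and strand setting are not given in the sources used here.

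Rows were filtered with filterByExpr and fitted in edgeR 4.0.16 (TMM factors, robust quasi-likelihood test, 5 h minus 0 h, Benjamini-Hochberg adjusted p under 0.05 over 17344 genes), tested on simulated data first. An SE is the log2 fold change divided by the root of the F statistic. CPM use TMM-scaled totals. Alternatives were DESeq2 1.42.0, limma-voom (limma 3.58.1), other scalings and filters, a replicate block and leaving out each library. Loci were placed and matched to hairpins by symbol in RefSeq tables of GRCm38; the gene around a locus is the shortest protein-coding span on its strand, or else another span that holds it.

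The members and lists were chosen with earlier results of these data known. Loci were named when among the 12 highest or lowest log2 fold changes of called, non-overlapping loci, among the 12 highest summed counts, in listed families, or at the threshold; processing genes by the 3 lowest adjusted p plus Drosha, Dgcr8 and Dicer1, of which 1 is not reported here. Every locus equal to another row in 2 libraries would also be named by the rule, and these are given as counts. Other names, such as Mir7060, Mir704, Mir6902, Mir6391, Mir3091, unlisted chromosome 12 loci, Xpo5, Ran, Tarbp2, Prkra and the Tnrc6 and Argonaute genes, were chosen after their values were seen.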

Additional observations from a re-analysis of the deposited data

How the results depend on the processing

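The count of loci called higher (13) was 8 with library totals, 4 with mitochondrial scaling, 6 with a filter of a mean of at least 2 CPM, which left 15 loci, 5 with counts divided by 4, which left 9 loci, and 8 with DESeq2; leaving out 1 library gave 8 to 12. The single call lower was 3 with mitochondrial scaling, and 0 with the 2 CPM filter, counts divided by 4, limma-voom, DESeq2 and each library left out (0 to 0), where 0 to 2 loci were lower at an unadjusted p under 0.05. Leaving out loci equal to another row in 2 or more libraries left 1 tested locus and 0 calls either way. Processing genes called higher (19) were 9 with library totals and 2 with mitochondrial scaling; those called lower (10) were 26 with mitochondrial scaling. Other settings kept these counts within 1.5 times.

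Replicate numbers did not pair the libraries (correlation of their deviations 0.050). With the replicate number as a block, 7 loci were called higher and 0 lower, with 1 lower at an unadjusted p under 0.05.

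Among named loci, none of the changes of direction touched a called locus. With library totals Mir294 turned to -0.14. With mitochondrial scaling Mir291b turned to -0.56, Mir295 to -0.51, Mir292 to -0.58, Mir290a to -0.43, Mir294 to -0.70, Mir363 to -0.52 and Mir34a to -0.37. With 1 library left out the log2 fold change ran from -0.34 to 0.13 for Mir293, from -0.087 to 0.044 for Mir18b, from -0.19 to 0.67 for Mir292, from -0.088 to 0.42 for Mir294, from -0.68 to 0.58 for Mir142, from -0.74 to 1.22 for Mir34a and from -0.20 to 0.11 for Mir291a. Mir1938, Mir6910, Mir677 and Mir3535 were called in every setting that tested them. With mitochondrial scaling the other 9 calls higher were lost, Mir5125 and Mir692-2 among them. With library totals and with DESeq2 those of Mir1291, Mir6911, Mir7038, Mir6907 and Mir1b were lost, the replicate block also ended that of Mir6991, and limma-voom ended that of Mir7038. Depth is low, with 43 of the 156 loci at 50 or more counts in all.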
